A study of Rattus norvegicus with 6 samples.

Results

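The 10 serotonin pathway genes described here encode proteins that make, store, take up, break down and sense serotonin. They were chosen by symbol (Tph1, Ddc, Slc6a4, Slc18a1, Slc18a2, Maoa, Maob, Htr1b, Htr2a and Htr2b), and all 10 were found among the 19828 entries of the deposited table. The study compared total lung tissue of 2 genotypes by bulk RNA-seq, Ahr knockout (Ahr-KO, 3 libraries) and wild type (WT, 3 libraries). All rats were of the Sprague-Dawley strain. Both groups were labelled with Sugen-Hypoxia (SuHx) and day 56, and no untreated lung is analysed here. Sugen blocks VEGF receptors, and rats given it with low oxygen serve as a model of pulmonary arterial hypertension. Ahr encodes the aryl hydrocarbon receptor, a transcription factor that ligands activate. How and where Ahr was edited, the age of the rats and whether each library came from its own animal are not stated in the labels.

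Serotonin is made from tryptophan in a pair of steps, hydroxylation by a tryptophan hydroxylase (Tph1 outside the brain) and decarboxylation by Ddc. It is loaded into vesicles by the vesicular monoamine transporters Slc18a1 and Slc18a2, taken back into cells by the serotonin transporter Slc6a4 and oxidised by the monoamine oxidases Maoa and Maob. In the lung, serotonin constricts pulmonary arteries and promotes growth of their smooth muscle cells, and lung endothelium clears it from blood. The receptors Htr1b, Htr2a and Htr2b are the ones most often studied in pulmonary hypertension.

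The first gene of the pathway, Tph1, fell in the Ahr-KO lungs, while Ddc and Maoa rose. The other members did not pass the test. Values below are the authors' normalised read counts, each library is numbered 0, 1 or 2 as in the table, and differences are Ahr-KO minus WT on the log2(value + 1) scale, ± SE. Gene length is not part of these values, so levels are compared between groups and not between genes. Of the 10 members, 9 reached a value of 1 in 3 or more libraries and entered the test, and Slc18a1 did not. Past an adjusted p of 0.05 were 3 members (33.3% of the 9 tested), 2 higher and 1 lower, against 10.8% of all 15386 genes tested (4.50% higher and 6.26% lower). In counts of genes this was 692 higher and 963 lower, against 449 higher and 1314 lower with equal library totals. For 8 of the 9 members the groups did not overlap, with Ahr-KO above WT in 4 and below WT in 4. Among all tested genes the groups did not overlap for 34.3% (17.0% above and 17.4% below). The members' median log2 difference was -0.28 and that of all tested genes 0.01. The signs of the differences of the 9 members were the same in each alternative fit that included them. Without Ahr-KO library 1 the number of members past the threshold was 1, Tph1 alone.

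**Figure D1:**
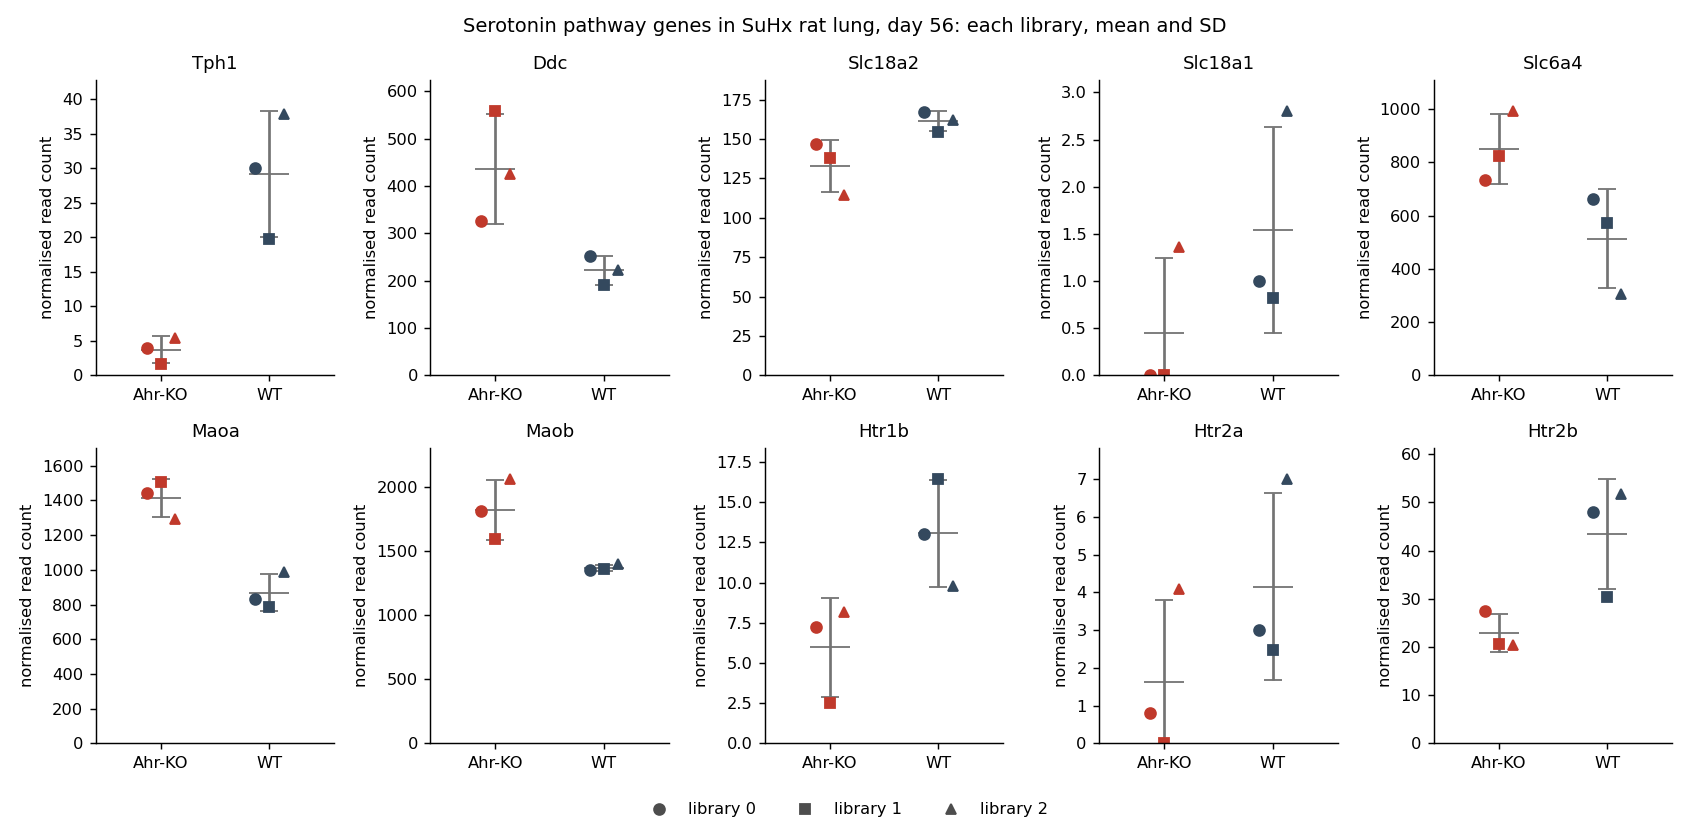
Normalised read count (y axis, linear, starting at 0) of the 10 serotonin pathway genes in 3 Ahr-KO libraries (red, left) and 3 WT libraries (dark, right), 1 panel a gene. Bars are mean and SD, and marker shapes give the library number. Tph1 lies between 1.65 and 5.46 in the Ahr-KO libraries and between 19.7 and 37.8 in the WT libraries, whereas the Ahr-KO libraries lie above all WT libraries for Ddc, Slc6a4, Maoa and Maob.

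Tph1, the rate-limiting enzyme of serotonin synthesis in peripheral tissues, had the largest difference of the 9 tested members. It stood at 4.03, 1.65 and 5.46 in Ahr-KO libraries 0, 1 and 2, against 30.0, 19.7 and 37.8 in WT libraries 0, 1 and 2. The means were 3.71 ± 1.92 in Ahr-KO and 29.2 ± 9.06 in WT (SD, n = 3 each). The lowest WT library was more than 3 times the highest Ahr-KO library. The log2 difference was -2.72 ± 0.45 (95% interval -3.77 to -1.68, adjusted p = 0.013), and the ratio of the group means was 0.127. These values rest on few reads, 5, 2 and 4 in the Ahr-KO libraries and 30, 24 and 27 in the WT libraries. Summed over a group, this was 11 reads (exact Poisson 95% interval 5.49 to 19.7) of about 60670000 in Ahr-KO and 81 reads (64.3 to 101) of about 52540000 in WT, intervals that cover counting error only. The call held in each of the 6 fits that left out 1 library (highest adjusted p = 0.044). In lung tissue as a whole, fewer cells of a type and less RNA per cell cannot be told apart, and this holds for each gene below.

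Ddc, the aromatic amino acid decarboxylase that also serves dopamine synthesis, moved the other way. It stood at 326, 558 and 426 in the Ahr-KO libraries, against 253, 191 and 222 in the WT libraries. The groups did not overlap, and Ahr-KO library 1 was the highest of the 6. The means were 437 ± 116 in Ahr-KO and 222 ± 30.8 in WT (SD, n = 3 each). The log2 difference was 0.95 ± 0.21 (95% interval 0.46 to 1.43, adjusted p = 0.029). The call was lost without Ahr-KO library 1 (adjusted p = 0.085), Ahr-KO library 2 (0.11), WT library 0 (0.053) or WT library 1 (0.083). Over all 17 alternatives the adjusted p ran from 0.018 to 0.13.

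Of the genes that supply and recycle tetrahydrobiopterin, the cofactor of tryptophan hydroxylases, together with the brain isoform Tph2, 0 of 7 tested passed in limma, and 1, Gch1, had an unadjusted p under 0.05. Gch1, which encodes the first enzyme of cofactor synthesis and is named here after its values were seen, stood at 145, 117 and 184 in the Ahr-KO libraries, against 231, 234 and 219.6 in the WT libraries. The groups did not overlap, with a log2 difference of -0.64 ± 0.19 (adjusted p = 0.07, 0.029 to 0.19 over the alternatives). Tph2 was listed at 0 in all 6 libraries. The list's median log2 difference was 0.07.

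The 300-base RefSeq promoter windows (GRCr8, from 250 bases before to 50 bases after an annotated start) are shown for Tph1, the member with the largest difference, and for Maoa and Maob, neighbouring genes on the X chromosome of which only Maob holds the motif searched. The motif was GCGTG, the core of the DNA element that AHR binds with its partner ARNT, read on both strands and set in capitals where it occurs. The Tph1 window is chr1:106314579-106314878 on the minus strand, the Maoa window chrX:8681323-8681622 on the minus strand and the Maob window chrX:8490155-8490454 on the plus strand.
Tph1: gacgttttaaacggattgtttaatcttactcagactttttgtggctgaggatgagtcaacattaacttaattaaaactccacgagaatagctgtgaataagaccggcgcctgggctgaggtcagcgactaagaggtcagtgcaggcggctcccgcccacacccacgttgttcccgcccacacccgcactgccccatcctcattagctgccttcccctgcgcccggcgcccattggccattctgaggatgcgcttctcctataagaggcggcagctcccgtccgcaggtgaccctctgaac
Maoa: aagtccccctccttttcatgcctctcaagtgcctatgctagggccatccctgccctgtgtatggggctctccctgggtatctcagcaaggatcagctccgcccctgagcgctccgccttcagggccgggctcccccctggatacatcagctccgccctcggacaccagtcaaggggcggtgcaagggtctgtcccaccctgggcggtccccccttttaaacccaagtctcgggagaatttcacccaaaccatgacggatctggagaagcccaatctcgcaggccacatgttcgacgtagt
Maob: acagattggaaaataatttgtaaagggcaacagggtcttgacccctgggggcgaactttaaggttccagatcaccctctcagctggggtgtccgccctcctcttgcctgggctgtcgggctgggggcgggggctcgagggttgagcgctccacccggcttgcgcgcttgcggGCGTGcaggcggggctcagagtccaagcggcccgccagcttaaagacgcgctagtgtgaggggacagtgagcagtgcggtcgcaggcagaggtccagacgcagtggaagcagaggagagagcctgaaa
The single match in the Maob window starts 78 bases before the annotated start. Windows were found for 7 of the 10 members, 9 windows in all because Ddc has 3. The motif occurred in 3 of these 9 windows (33.3%), those of Maob, Slc18a2 and Htr1b, and in 29.7% of all 33469 windows of this length. It was not in the windows of Tph1, Ddc and Maoa, the members past the threshold. A match describes letters in a window, and binding was not measured here.

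Markers of mast cells, which in rats hold serotonin in their granules, moved in part with Tph1. Of 13 tested markers on the mast cell list, 4 fell, 1 rose and 8 did not pass, and the median log2 difference was -0.87. Among all tested genes 6.26% fell and 4.50% rose. Mcpt2, a mast cell protease gene, stood at 40.3, 9.92 and 17.7 in the Ahr-KO libraries, against 254, 117 and 168 in the WT libraries (log2 -3.08 ± 0.50, adjusted p = 0.011). The high-affinity IgE receptor chain gene Fcer1a stood at 8.06, 7.44 and 2.73 in the Ahr-KO libraries, against 44.0, 24.6 and 44.8 in the WT libraries (log2 -2.51 ± 0.45, adjusted p = 0.015). Both genes were lower in every Ahr-KO library than in any WT library. The other IgE receptor gene Ms4a2 (log2 -2.00 ± 0.48, adjusted p = 0.038) and the carboxypeptidase gene Cpa3 (log2 -2.36 ± 0.58, adjusted p = 0.04) also fell, the last named beyond the rule for named genes.

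Histidine decarboxylase (Hdc), which makes histamine, stood at 123, 258 and 192 in the Ahr-KO libraries and at 273, 248.8 and 221 in the WT libraries, and the groups overlapped (adjusted p = 0.33). The chymase gene Cma1 overlapped as well, between 15.7 and 31.4 in Ahr-KO and between 14.8 and 43.4 in WT. Of the other markers that did not pass, Gata2 and Tpsab1 were higher in Ahr-KO (log2 0.72 and 1.16, adjusted p = 0.061 and 0.31). Tpsb2, Mrgprb3 and Slc6a12 were lower (log2 -1.47, -1.63 and -0.87, adjusted p = 0.13, 0.12 and 0.098), and Srgn hardly differed (log2 0.0022). Kit, the stem cell factor receptor, which lung capillary endothelium also expresses in mice, rose to 3641, 3116 and 3185, against 1305, 809.7 and 1105 in the WT libraries (log2 1.65 ± 0.17, adjusted p = 0.0034). The summed level of the whole list was 9245 to 10927 in Ahr-KO and 5787 to 7674 in WT. Kit, Gata2 and Srgn made up most of it in every library, and without these 3, a split made after the values were seen, the sum of the other 11 was 366 to 442 in Ahr-KO and 652 to 1294 in WT. Mcpt1 was at 0 in 5 of 6 libraries. The part of mast cells in the Tph1 difference was not tested.

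Leaving out 1 library ended the call of Mcpt2 without Ahr-KO library 2 (adjusted p = 0.06) and that of Fcer1a without WT library 0 (0.054). Ms4a2 and Cpa3 lost theirs without Ahr-KO library 1 (0.11 and 0.12), Ahr-KO library 2 (0.13 and 0.15), WT library 0 (0.11 and 0.11) or WT library 2 (0.071 and 0.08). Over all alternatives the adjusted p ran from 0.0076 to 0.082 for Mcpt2, 0.013 to 0.069 for Fcer1a, 0.015 to 0.17 for Ms4a2 and 0.02 to 0.21 for Cpa3. Pulmonary neuroendocrine cells are another known source of Tph1. Of their 12 tested markers 0 passed in limma, and 3 had an unadjusted p under 0.05, Calca, Resp18 and Uchl1. Resp18 had the lowest p of these, at 12.3 to 12.9 in Ahr-KO against 21.0 to 32.2 in WT (adjusted p = 0.056). The summed level of that list was 971 to 1303 in Ahr-KO and 1018 to 1904 in WT, and Grp was at 0 in all libraries. Most of each neuroendocrine sum was Nov, at 809 to 1078 in Ahr-KO and 791 to 1549 in WT (adjusted p = 0.67).

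**Figure D2:**
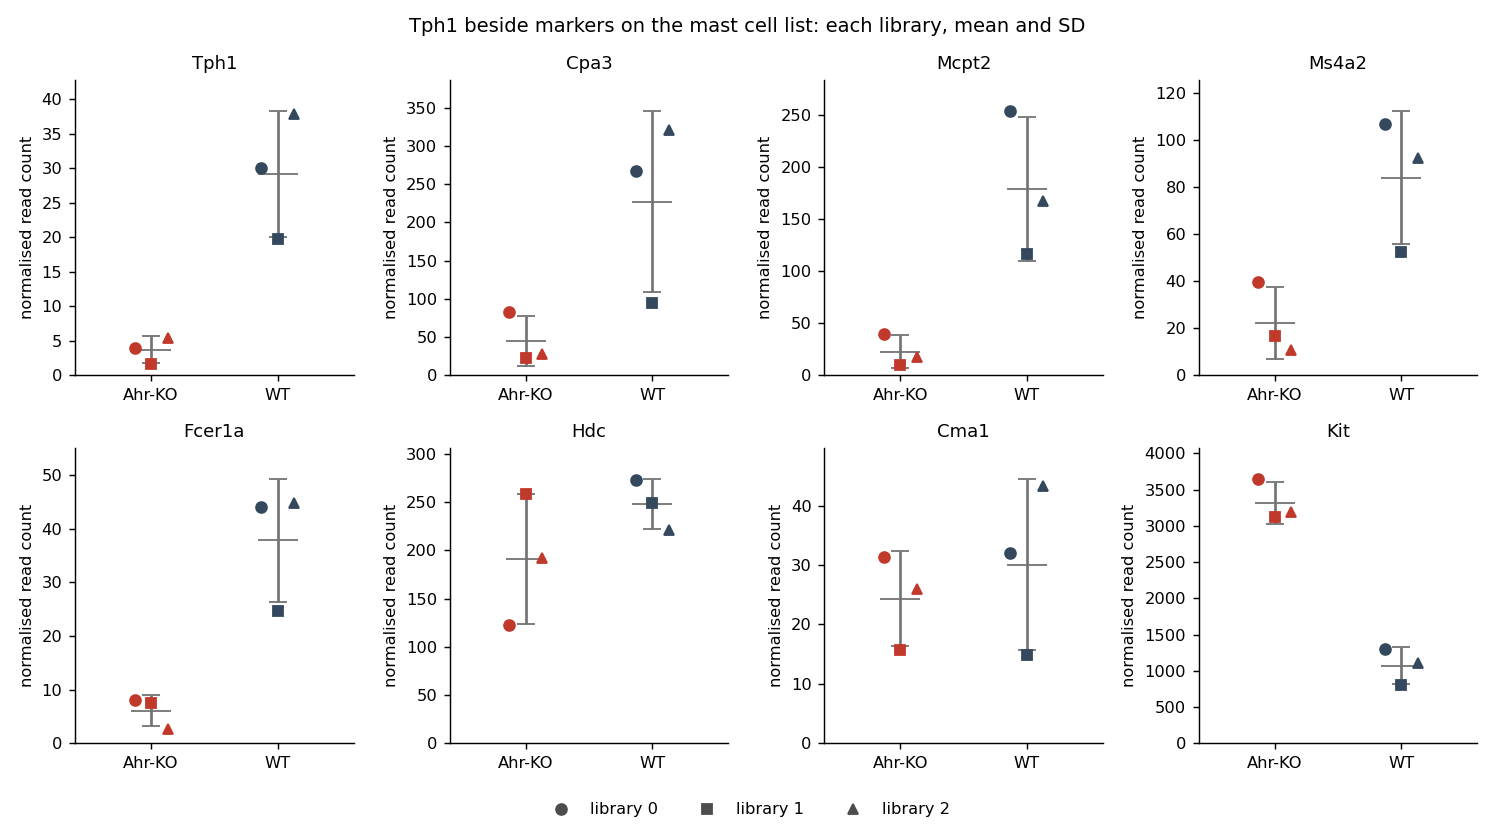
Normalised read count (y axis, linear, starting at 0) of Tph1 and 7 markers on the mast cell list in 3 Ahr-KO libraries (red, left) and 3 WT libraries (dark, right), with mean and SD. Tph1, Cpa3, Mcpt2, Ms4a2 and Fcer1a lie lower in all Ahr-KO libraries than in any WT library, Hdc and Cma1 overlap, and Kit lies higher in Ahr-KO.

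Storage genes gave no call. The vesicular transporter Slc18a2, which loads serotonin into granules of platelets, mast cells and neurons, stood at 147, 138 and 115 in the Ahr-KO libraries, against 167, 154 and 162 in the WT libraries. The groups did not overlap, but the log2 difference was small, -0.28 ± 0.16 (95% interval -0.66 to 0.09, adjusted p = 0.3). The Slc18a2 difference was -0.14 after quantile normalisation, -0.18 without Ahr-KO library 2 and -0.17 without both libraries numbered 2. Slc18a1, the other vesicular transporter, best known from chromaffin and other endocrine cells, stood at 0, 0 and 1.36 in the Ahr-KO libraries, against 1.0, 0.82 and 2.8 in the WT libraries. That is 1 read in all against 4 reads, and no difference is detectable at this depth.

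The serotonin transporter Slc6a4 was higher in every Ahr-KO library than in any WT library without passing the test. It stood at 735, 826 and 992 in the Ahr-KO libraries, against 662, 574 and 305 in the WT libraries. WT library 2 was far below the other 5 libraries. The log2 difference was 0.79 ± 0.27 (95% interval 0.16 to 1.42, adjusted p = 0.11), without WT library 2 it was 0.45 (adjusted p = 0.086), and without both libraries numbered 2 it was 0.34 (0.16). The adjusted p ran from 0.077 to 0.3 over the alternatives. WT library 2 also held the highest summed level of cardiac muscle markers, 6811, against 1636 to 2455 in the Ahr-KO libraries and 890 and 2111 in the other WT libraries. All 9 tested cardiac markers missed the threshold (0 at an unadjusted p under 0.05), and their part in the Slc6a4 values was not tested.

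Of 5 other monoamine uptake transporters tested, 0 passed in limma, and the unadjusted p was under 0.05 for Slc22a2 only. The noradrenaline transporter Slc6a2 stood at 529.5, 192 and 191 in the Ahr-KO libraries, against 229, 215 and 99.3 in the WT libraries. Those groups overlapped (log2 0.66 ± 0.46, adjusted p = 0.39), and WT library 2 was again the lowest. The organic cation transporter Slc22a3, a low-affinity carrier of serotonin, ran from 90.3 to 176 in Ahr-KO and from 96.5 to 136 in WT (adjusted p = 0.76).

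Both oxidase genes stood higher in every Ahr-KO library than in any WT library, and 1 of them passed the test. Maoa, the oxidase with the higher affinity for serotonin, stood at 1442, 1505 and 1295 in the Ahr-KO libraries, against 833, 785 and 986 in the WT libraries. The means were 1414 ± 108 in Ahr-KO and 868 ± 105 in WT (SD, n = 3 each). The groups did not overlap, and the log2 difference was 0.71 ± 0.12 (95% interval 0.44 to 0.97, adjusted p = 0.012), or 1.63-fold. The call was lost without Ahr-KO library 1, at an adjusted p of 0.052 with a log2 difference of 0.66. Over the 17 alternatives the adjusted p ran from 0.0071 to 0.052.

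Maob, the oxidase better known for phenylethylamine and dopamine, stood at 1816, 1593 and 2059.9 in the Ahr-KO libraries, against 1351, 1363 and 1397 in the WT libraries. The WT libraries lay close together and all below the Ahr-KO libraries. Its log2 difference of 0.40 ± 0.11 (95% interval 0.15 to 0.65) missed the threshold at an adjusted p of 0.052, with 0.05036 to 0.15 over the alternatives. Maoa and Maob are close relatives, and reads shared between them would leave their single levels uncertain.

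Past the oxidases, of 8 tested genes for aldehyde and aldose enzymes, melatonin synthesis and protein serotonylation, 0 passed in limma. The unadjusted p was under 0.05 for 1 of them, Asmt. This gene, which encodes the last enzyme of melatonin synthesis and is named here after its values were seen, stood at 18.5, 13.2 and 16.4 in the Ahr-KO libraries, against 6.0, 9.03 and 1.4 in the WT libraries. Its groups did not overlap (log2 1.61 ± 0.55, adjusted p = 0.1), and Aanat, the enzyme before it, was at 0 in all 6 libraries. Aldh2, the mitochondrial aldehyde dehydrogenase, ran from 8219 to 8380.0 in Ahr-KO and from 7792 to 8694 in WT (adjusted p = 0.92).

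**Figure D3:**
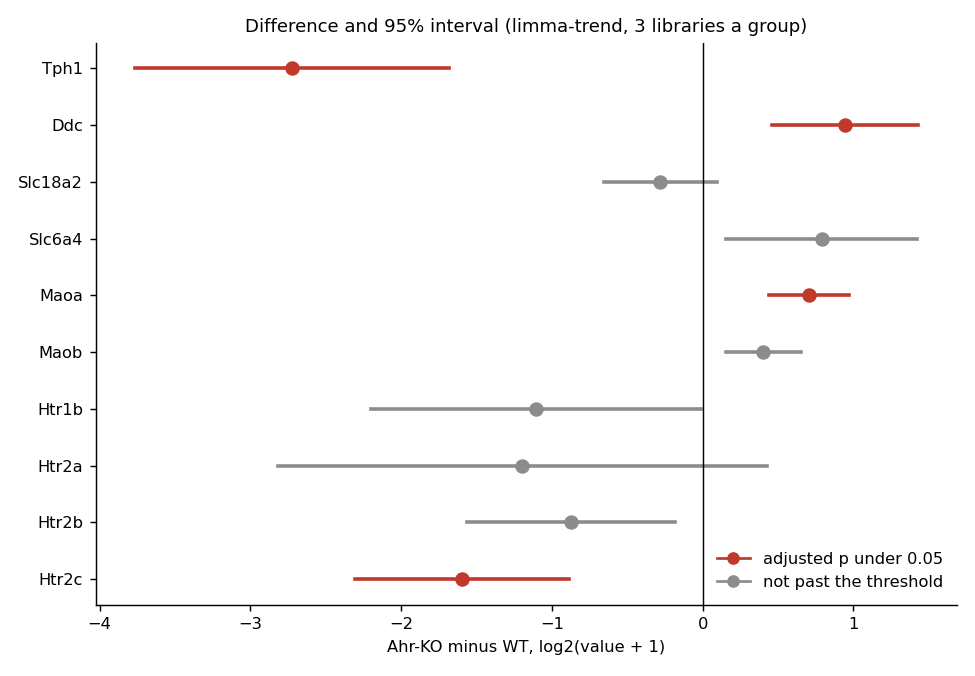
Difference Ahr-KO minus WT on the log2(value + 1) scale (x axis) with its 95% interval from limma-trend, for the 9 tested members and the receptor gene Htr2c (y axis), 3 libraries a group. Red marks an adjusted p under 0.05: Tph1 (-2.72) and Htr2c (-1.59) lie left of 0, Ddc (0.95) and Maoa (0.71) right of it, and the intervals of Slc18a2 and Htr2a include 0.

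The serotonin receptors among the members were lower in the Ahr-KO libraries without passing the test. Htr2b, a Gq-coupled receptor that pulmonary artery cells express, stood at 27.4, 20.7 and 20.5 in the Ahr-KO libraries, against 48.0, 30.4 and 51.8 in the WT libraries. The groups did not overlap, with a log2 difference of -0.87 ± 0.30 (95% interval -1.56 to -0.18, adjusted p = 0.1), or -0.56 after quantile normalisation (adjusted p = 0.26). Htr1b, a Gi-coupled receptor that mediates constriction of human pulmonary arteries, stood at 7.25, 2.48 and 8.18 in the Ahr-KO libraries, against 12.995, 16.4 and 9.79 in the WT libraries. It rested on 18 reads in the Ahr-KO libraries and 40 in the WT libraries (log2 -1.11 ± 0.47, adjusted p = 0.17). Without Ahr-KO library 1, the lowest of the 6, the Htr1b difference was -0.67 (adjusted p = 0.41). Htr2a, the Gq-coupled receptor of vascular smooth muscle and platelets, was close to 1 read, at 0.81, 0 and 4.09 in the Ahr-KO libraries, against 3.0, 2.46 and 6.99 in the WT libraries. Its groups overlapped, and 4 reads against 11 left a wide interval (log2 -1.20, 95% interval -2.82 to 0.43, adjusted p = 0.31). Leaving out Ahr-KO library 1 gave -0.66 for Htr2a, and leaving out Ahr-KO library 2 gave -1.84. The difference was -1.83 with limma-voom and -2.40 with a pseudocount of 0.1 (adjusted p of 0.17 to 0.64 over the alternatives).

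Of the 11 other serotonin receptor genes, 1 was measured above the filter, and it fell. Htr2c, a Gq-coupled receptor best known from the brain and choroid plexus, stood at 33.8, 21.5 and 17.7 in the Ahr-KO libraries, against 64.0, 65.7 and 92.3 in the WT libraries. Every Ahr-KO library was below every WT library, with 42, 26 and 13 reads against 64, 80 and 66 reads. The log2 difference was -1.59 ± 0.31 (95% interval -2.30 to -0.89, adjusted p = 0.019). The call was lost without Ahr-KO library 1 (adjusted p = 0.065) or Ahr-KO library 2 (0.074), and the adjusted p ran from 0.015 to 0.093 over the alternatives. Htr1a, Htr3b, Htr4, Htr6 and Htr7 were at 0 in all 6 libraries. For a group total of 0 reads the exact Poisson 95% interval of the expected number runs from 0 to 3.69. Htr1d, Htr1f, Htr5a and Htr5b had 1 read in 1 Ahr-KO library and Htr3a 1 read in 1 WT library.

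Genes through which these receptors signal changed in both directions. Of 26 tested coupling and effector genes, 5 rose, 2 fell and 19 did not pass (against 10.8% called among all tested genes), and the median log2 difference was 0.01. With equal library totals 2 rose and 3 fell. The genes are shared by many other receptors. Plcb4, a phospholipase C that Gq proteins activate, stood at 4168, 3709.9 and 3506 in the Ahr-KO libraries, against 1969, 1838 and 2207 in the WT libraries (log2 0.92 ± 0.11, adjusted p = 0.0046), and its call held without any 1 library. Plcb1, another member of the same enzyme family, fell to 315, 272 and 231, against 749.7, 447 and 574 in the WT libraries (log2 -1.09 ± 0.21, adjusted p = 0.018). Rgs5, a brake on G protein signalling and a pericyte gene, fell to 165, 121 and 146, against 246, 397 and 425 in the WT libraries (log2 -1.27 ± 0.23, adjusted p = 0.016). For each of these 3 genes the groups did not overlap.

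The inhibitory G protein subunit Gnai1 (log2 0.68 ± 0.14, adjusted p = 0.023), the adenylyl cyclase Adcy6 (0.47 ± 0.10, adjusted p = 0.028) and the calcium release channel Itpr3 (0.55 ± 0.13, adjusted p = 0.036) rose, and the seventh call was that of Plcb3 (0.37 ± 0.10, adjusted p = 0.0496), which the rule for named genes did not include. S100a4, a gene that serotonin induces in pulmonary artery smooth muscle cells, did not pass (1543 to 2082 in Ahr-KO against 1869 to 2793 in WT, adjusted p = 0.34). Neither did the kinase genes Rock1 (adjusted p = 1.0) and Rock2 (0.94), which act downstream of RhoA in contraction. The count of 7 was 1 without Ahr-KO library 1 or Ahr-KO library 2 and 3 without WT library 0 or WT library 1. Plcb1 was lost without Ahr-KO library 1 (adjusted p = 0.06) or 2 (0.077), and Rgs5 without these (0.06 and 0.07) or WT library 1 (0.053). Gnai1 was lost without Ahr-KO library 1 (0.063), Ahr-KO library 2 (0.053), WT library 0 (0.058) or WT library 1 (0.069). Adcy6 was lost without Ahr-KO library 1 (0.0798), Ahr-KO library 2 (0.1) or WT library 0 (0.0795), Itpr3 without any 1 library other than WT library 2 (highest 0.13), and Plcb3 without any 1 library (highest 0.16).

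**Figure D4:**
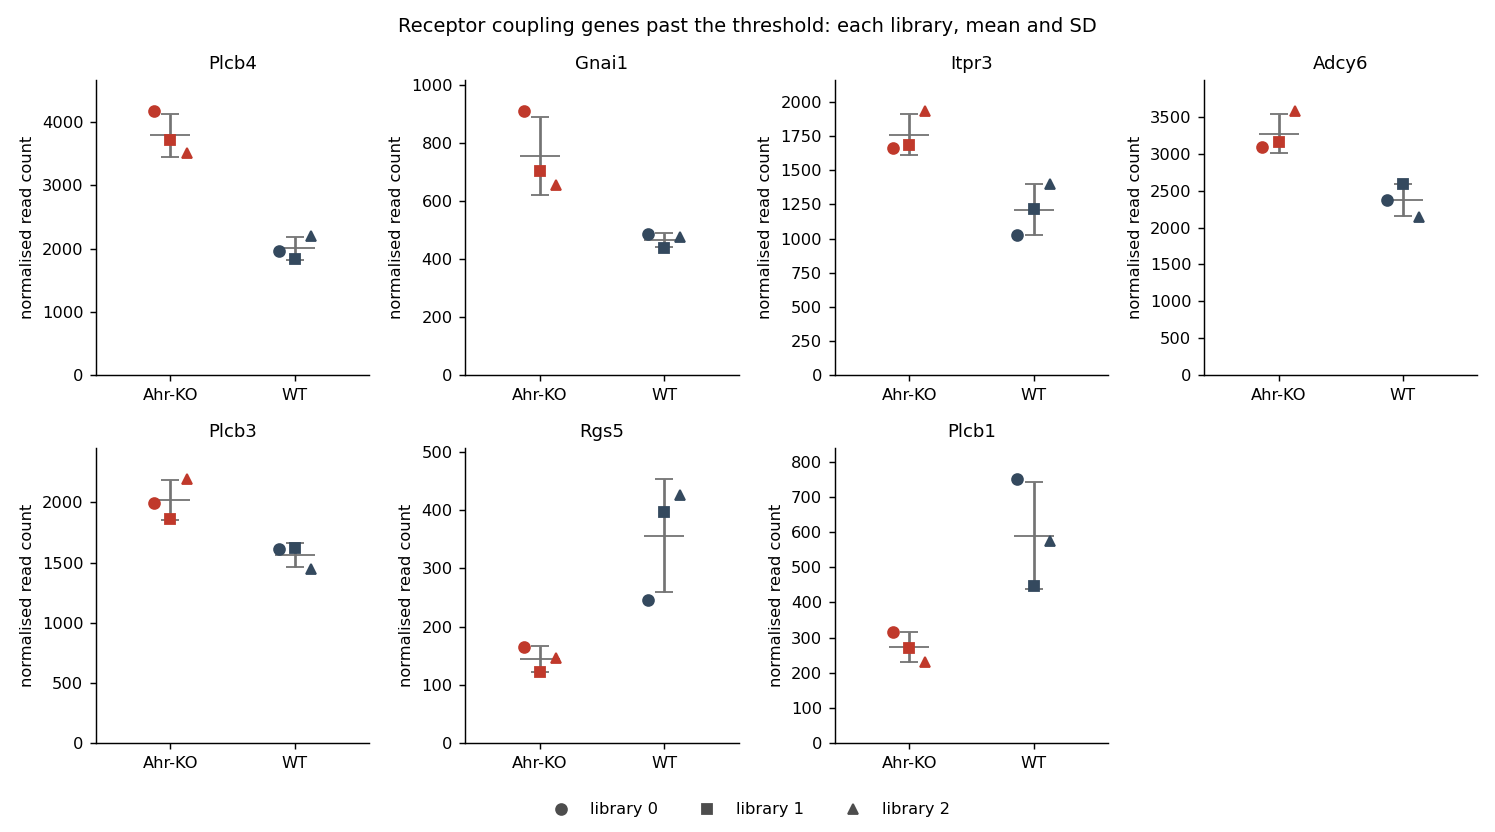
Normalised read count (y axis, linear, starting at 0) of the 7 receptor coupling genes past the threshold in 3 Ahr-KO libraries (red, left) and 3 WT libraries (dark, right), with mean and SD. Plcb4, Gnai1, Itpr3, Adcy6 and Plcb3 lie higher and Rgs5 and Plcb1 lower in all Ahr-KO libraries than in any WT library.

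Several kinds of lung cell carry the uptake and breakdown genes, and their markers are given beside Slc6a4 and Maoa. The counts below stand against 10.8% called among all tested genes, 4.50% higher and 6.26% lower. On the endothelial list, 2 of 12 rose, Tek (log2 0.89 ± 0.16, adjusted p = 0.016) and Pecam1 (0.58 ± 0.15, 0.044), Emcn fell (-0.35 ± 0.09, 0.042) and 9 did not pass, with a summed level of 106731 to 117736 in Ahr-KO and 84333 to 96246 in WT. Of 11 lung epithelium markers 3 rose, Hopx (log2 1.07 ± 0.14, adjusted p = 0.0071) and Rtkn2 (0.88 ± 0.18, 0.021) and Ager (0.69 ± 0.16, 0.034) of alveolar type I cells, and Foxj1 of ciliated cells fell (-0.74 ± 0.16, 0.03). The sums of that list were 909476 to 977514 in Ahr-KO and 751276 to 753420.0 in WT. Most of each epithelium sum came from Sftpc, Sftpa1, Scgb1a1 and Sftpb, which did not pass (adjusted p = 0.36, 0.25, 0.93 and 0.054). Of 12 fibroblast and pericyte markers 2 fell, the collagen genes Col1a1 (log2 -1.38 ± 0.14, adjusted p = 0.0034) and Col3a1 (-0.65 ± 0.13, 0.02), with sums of 42726 to 50367 in Ahr-KO and 58824 to 72769 in WT. Most of each of these sums came from Col1a1 and Col3a1. Of the markers on that list that did not pass, Cspg4, Pdgfra and Pdgfrb were higher in Ahr-KO (log2 0.40, 0.14 and 0.08). Their adjusted p was 0.076, 0.76 and 0.82, and the others that did not pass were lower. Of 11 macrophage markers 4 fell, the complement genes C1qa, C1qb and C1qc (log2 -1.91, -1.86 and -1.65, highest adjusted p = 0.0086) and Itgax (-1.09, 0.034), with sums of 319472 to 412268 in Ahr-KO and 412215 to 521608 in WT. Most of each macrophage sum was 1 gene, Lyz2, at 309256 to 401086 in Ahr-KO and 395283 to 501515 in WT, which did not pass (adjusted p = 0.54). Of the other macrophage markers that did not pass, Csf1r and Cd163 were higher in Ahr-KO (log2 0.20 and 0.88, adjusted p = 0.16 and 0.49). The Csf1r groups did not overlap. Cd68, Adgre1, Mrc1 and Fabp4 were lower.

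No call came from the lists of smooth muscle, platelets and red blood cells. Of 11 smooth muscle markers 0 passed in limma, 4 of them at an unadjusted p under 0.05, and the sums of 33438 to 52675 in Ahr-KO overlapped those of 25188 to 35989 in WT. Of 11 platelet markers 0 passed in limma, 4 of them at an unadjusted p under 0.05, with sums of 759 to 1008 in Ahr-KO and 667 to 1062 in WT, and Gp5 was at 0 in all libraries. Of 5 red blood cell markers 0 passed in limma, 4 of them at an unadjusted p under 0.05, with sums of 2695 to 6768 in Ahr-KO and 4786 to 15872 in WT, most of them from Hbb. Of 10 neuron and glia markers 1 fell, Tubb3 (log2 -2.73 ± 0.69, adjusted p = 0.044), with sums of 342 to 458 in Ahr-KO and 312 to 448 in WT. Tubb3 rested on few reads, at 4.03, 2.48 and 0 in the Ahr-KO libraries, against 11.0, 30.4 and 12.6 in the WT libraries. A count of 1 in 10 is near the 10.8% called among all tested genes. Among the marker calls of these 2 paragraphs, Hopx, Col1a1, C1qa, C1qb and C1qc held without any 1 library. Tek was lost without Ahr-KO library 1 (adjusted p = 0.059) or WT library 0 (0.051), and the other 8 were lost without at least 4 of the 6 libraries in turn (highest 0.14). The part of these cell types in the serotonin gene differences was not tested.

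Across the 6 libraries the genes whose log2 values followed Tph1 most closely were Tmem229b (Pearson r = 0.997), Lima1 (0.996) and Ncf4 (0.996). For Ddc they were Rapgef2 (0.994), Btbd3 (0.993) and Cryzl1 (0.993), and for Maoa Tcp11l2 (0.993), Mxi1 (0.993) and Zfp560 (0.992). With 15386 genes and 6 libraries that fall into 2 genotypes, such values describe these libraries only.

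The depth behind the values was about 14180000 to 23640000 reads in the Ahr-KO libraries and 12870000 to 21860000 reads in the WT libraries, and library 2 was the shallowest of each group. One read corresponded to a value of 0.806 to 1.36 in the Ahr-KO libraries and 0.821 to 1.40 in the WT libraries. Ahr stood at 2399, 3923 and 3575 in the Ahr-KO libraries, against 2940.0, 2860.4 and 3395 in the WT libraries (log2 0.08 ± 0.18, adjusted p = 0.81), which does not test the labels, since reads from unedited exons may be counted. Cyp1a1, the best known AHR target, stood at 10.5, 0.83 and 1.36 in the Ahr-KO libraries, against 27085, 23512 and 37694 in the WT libraries (adjusted p = 0.00024), in the direction the labels give. The lung's surfactant gene Sftpc was at 299807 to 345211 in Ahr-KO and 230761 to 285880.0 in WT.

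**Figure D5:**
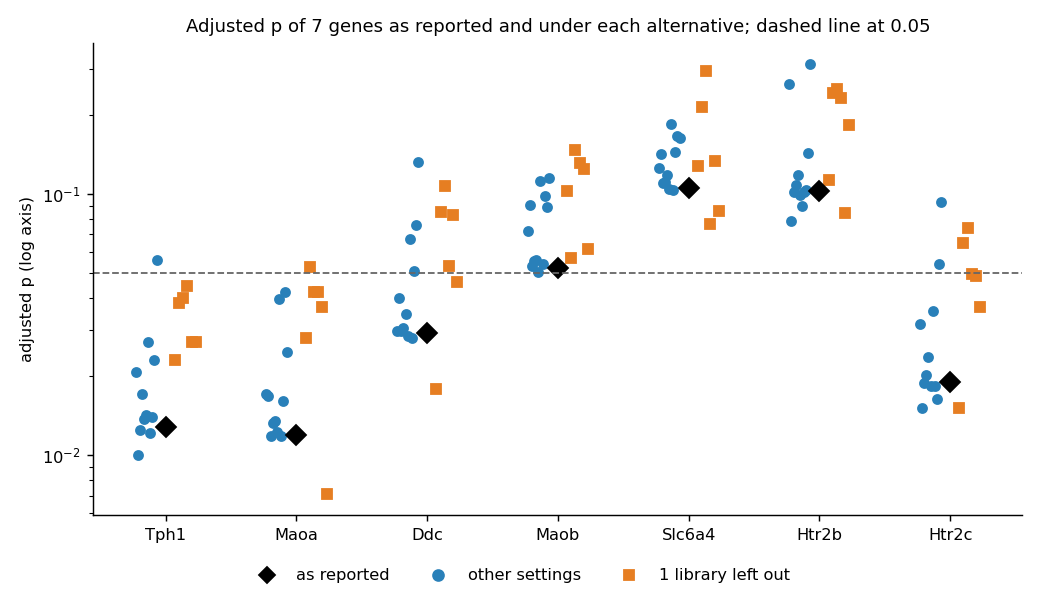
Adjusted p (y axis, log scale) of 6 members and of Htr2c (x axis) as reported (diamonds), under 11 other settings (circles) and with 1 of the 6 libraries left out (squares), with the threshold of 0.05 as a dashed line. Tph1 and Maoa cross the line in 1 of 17 alternatives each, Ddc in 8, and Maob, Slc6a4 and Htr2b stay above it throughout.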

How the data were processed

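Total lung RNA of 3 Ahr-KO and 3 WT samples was profiled by RNA-seq, and per the submitters' processing notes FastQC and the genome build rn6 were used. No source used here names the aligner, the counter, the annotation or the strandedness. The authors deposited 1 table of normalised signal per gene symbol, which behaved as estimated reads divided by 1 factor per library: between 97.4% and 97.9% of values above 0 were, to within 0.05, whole multiples of the library's step, which was taken as 1 read. The rest held fractions, and no count test was run.

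Columns show the genotype and numbers from 0, whereas titles count from 1, so columns were assigned to groups only. Separate animals are not stated, and the p-values therefore cover only the sample-to-sample spread, possibly technical. No pair of libraries differed by as little as sampling noise (lowest chi-square per gene 15.4). There were 0 unused columns.

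Values were taken as log2(value + 1), the 15386 genes that reached 1 in 3 or more libraries were kept, and genotype was tested with limma-trend (limma 3.58.1, R 4.3.3). The 2-sided p-values were adjusted by Benjamini-Hochberg across these genes, and calls were made below 0.05. Sums of reads have exact Poisson 95% intervals. The code was tested on simulated data.

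Members and lists were chosen with earlier results of these data known. Named are all members, the genes past the threshold in other pathway lists (up to 6 a list by lowest p) and in marker lists (up to 4 a list). For each member past the threshold, the 3 genes with the highest correlation are named. Any other gene in the text was chosen after its values were seen. The alternatives were 3 other scalings, a pseudocount of 0.1, other filters, no trend, robust limma, limma-voom on those reads, the library number as a block, libraries left out and a threshold of 0.10.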

Additional observations from a re-analysis of the deposited data

How the results depend on the processing

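The number of genes past the threshold was 952 without the trend, 899 with the library number as a replicate block, 553 without both libraries numbered 2, 2853 at an adjusted p under 0.10 and 407 to 1834 with 1 library left out, against 1655 as reported. Serotonin members past it were 1 without both libraries numbered 2 and 1 to 3 with 1 library left out, against 3. Genes on the other lists past it were 16 without the trend, 8 without both libraries numbered 2 and 9 to 25 with 1 library left out, against 27. Without both libraries numbered 2, Tph1 had a log2 difference of -2.79 (adjusted p = 0.056) and Ddc 0.95 (0.13). Ddc also lost its call at 0.95 without the trend (adjusted p = 0.067), at 0.87 with limma-voom (0.051) and at 0.95 with the replicate block (0.076). With 1 library left out, the log2 difference was -3.00 to -2.36 for Tph1, 0.75 to 1.14 for Ddc and 0.64 to 0.80 for Maoa. Ahr, far from the threshold, changed sign to -0.012 after quantile normalisation, with equal library totals and with limma-voom, and lay between -0.061 and 0.293 with 1 library left out, below 0 without Ahr-KO library 1. The causes were not tested. Same-numbered libraries did not deviate together (r = -0.1, 0.0687 and -0.0738), and pairs with unlike numbers ran from -0.0514 to 0.124. With so few libraries these values cannot show whether the numbers pair the samples, and the labels do not say. The replicate block ended the calls of Ddc (adjusted p = 0.076) and Htr2c (0.054). With equal library totals the median log2 difference of all genes was -0.08, and 449 genes were higher and 1314 lower, against 692 and 963. The lowest value above 0 in a library, at most 2.43e-07, could not stand for 1 read, so read numbers have no alternative. Depth limits Slc18a1 and Htr2a, with 1 and 4 reads in the Ahr-KO libraries.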
